A study of Mus musculus with 24 samples.

Results

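The genes that make, sense and break down prostaglandins were followed in pancreatic stellate cells (PSC). They are 10 genes chosen by name (Ptgs1, Ptgs2, Ptges, Ptges2, Ptgis, Ptgds, Ptger2, Ptger4, Ptgfr and Hpgd), found by gene symbol among 53801 genes listed, and each matched 1 row. PSC are the star-shaped mesenchymal cells of the pancreas that lay down matrix in pancreatic cancer. They were isolated from pooled pancreata (4 to 10 per isolation) of wild-type C57BL/6J mice aged 7 to 10 weeks and used in the first or second passage. All PSC, co-cultured and control alike, sat on a membrane with 1 µm pores. The partner was 1 KPC line, murine pancreatic cancer cells from a mouse with p48-Cre and lox-stop-lox-Trp53R172H/+ among its alleles, in which Cre acts in the pancreatic lineage, so all co-culture results rest on that single line. In the standard model KPC cells grew on the floor of the well (distant paracrine co-culture), and in the inverse model on the underside of the membrane that carried the PSC (close paracrine co-culture). Mono-cultured PSC served as controls of each model. Poly-A RNA of the PSC was sequenced at 24 h and 72 h. Each of the 8 groups held 3 libraries, 24 in all. Standard libraries were made from 450 ng of total RNA and inverse libraries from 120 ng, and in the inverse model KPC cells were already on the membrane when PSC were seeded, so inverse PSC met them earlier. Standard PSC and their controls were seeded in a low glucose medium and changed to advanced DMEM/F-12 medium when time counting began. Inverse PSC and their controls were seeded in advanced DMEM/F-12 medium, with no change described. The model, the amount of RNA, the time of co-existence and the medium at seeding cannot be told apart.

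Prostaglandin synthesis starts when a phospholipase frees arachidonate from membranes. The cyclooxygenases, encoded by Ptgs1 and Ptgs2, turn arachidonate into the unstable intermediate prostaglandin H2. Terminal synthases then convert it to prostaglandin E2 (Ptges, Ptges2), prostacyclin (Ptgis) or prostaglandin D2 (Ptgds). Receptors on the cell surface sense the products, with Ptger2 and Ptger4 encoding the prostaglandin E2 receptors EP2 and EP4, which raise cyclic AMP, and Ptgfr encoding the prostaglandin F2α receptor. Hpgd encodes 15-hydroxyprostaglandin dehydrogenase, which inactivates prostaglandins inside the cell. Stromal fibroblasts of tumours are a known source of prostaglandin E2.

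Libraries held between 15932737 and 24798761 counted fragments, with a median of 18860269. Levels are given in FPKM, fragments scaled to transcript length and library total. The length is the mean over a gene's annotated transcripts, so comparisons of genes with each other depend on it. Markers of mesenchymal cells were high in every library, with Vim at 706 to 1994 FPKM, Col1a1 at 4918 to 10710 FPKM and Pdgfrb at 126 to 193 FPKM. The stellate cell marker Gfap did not exceed 0.238 FPKM in any library. Macrophage and adipocyte transcripts were also present: 12 macrophage markers summed to 27.3 to 1476 FPKM per library and 8 adipocyte markers to 42.5 to 1021 FPKM. Acinar markers summed to at most 1.09 FPKM. In all 4 standard groups the library numbered 1 lay farthest from the other two of its group, with a root mean square distance of 0.600 to 0.942 on the log2 scale over 14452 genes, against 0.432 to 0.743 for the standard libraries numbered 2 and 3 and 0.403 to 0.607 for the inverse libraries. Standard results are therefore given with and without those 4 libraries. The study's methods call the replicates biological. Neither they nor the labels say whether replicates came from separate isolations, so p-values measure the spread between these libraries.

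The 10 genes fell into 3 tiers of expression. Ptgis (65.2 to 154 FPKM), Ptges (39.9 to 106 FPKM) and Ptgs1 (37.8 to 110 FPKM) were high in every library. Ptgs2 (2.70 to 42.5 FPKM), Ptges2 (8.01 to 18.03 FPKM) and Ptger4 (4.66 to 13.4 FPKM) were intermediate. Hpgd (0.307 to 5.05 FPKM), Ptgfr (0.169 to 1.695 FPKM), Ptger2 (0 to 0.350 FPKM) and Ptgds (0 to 0.254 FPKM) were low. When the 8 groups were ordered by their mean, neighbouring groups overlapped in all 7 neighbour pairs of each of the 10 genes.

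**Figure D1:**
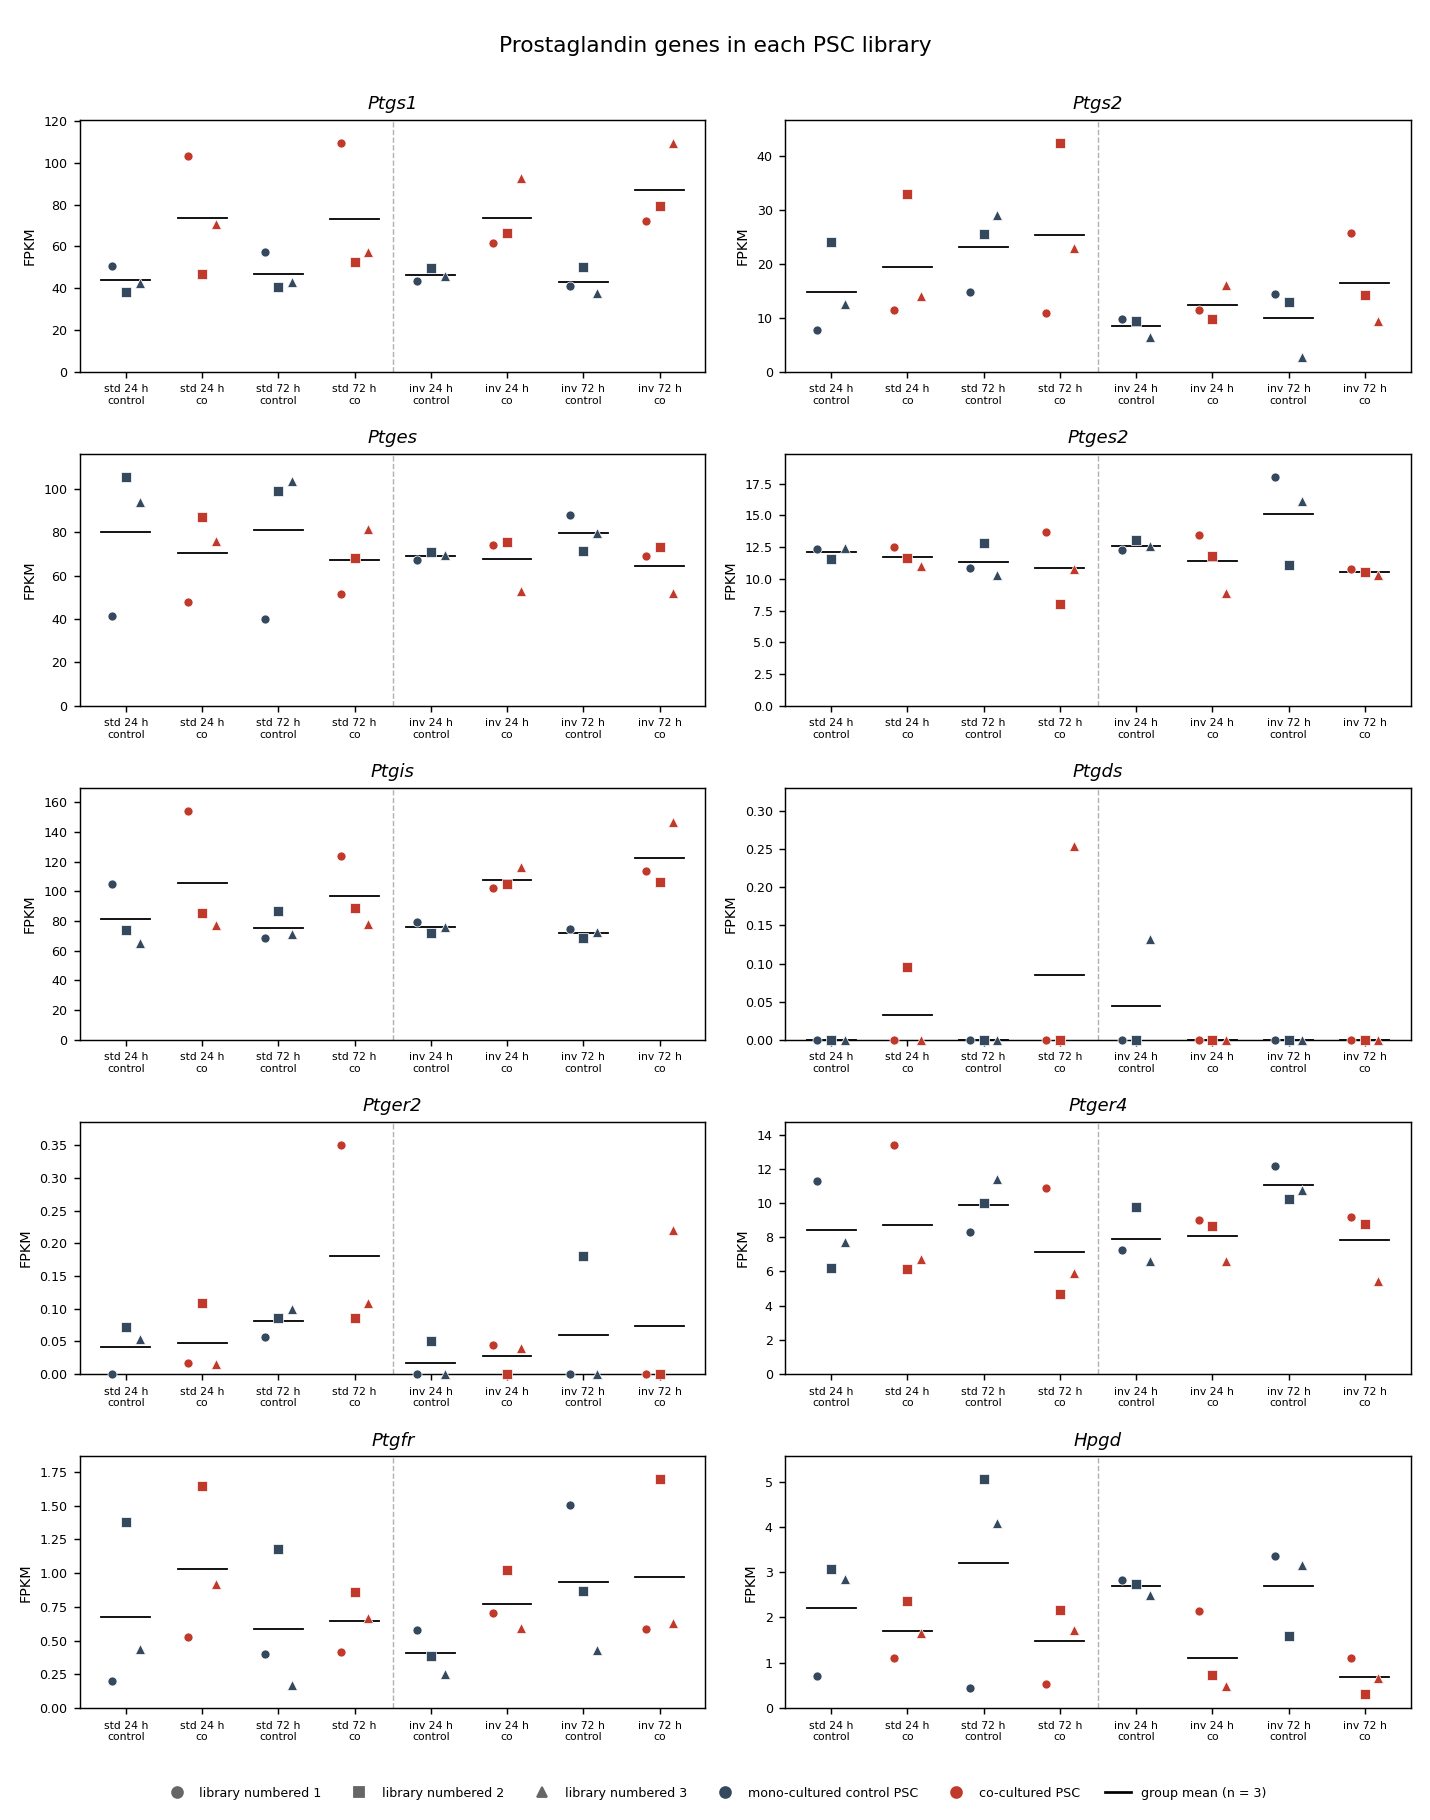
FPKM of the 10 genes (1 panel each, linear axes from 0) in each of the 24 libraries, by model (std, standard; inv, inverse), time and culture; symbols mark library numbers and lines the mean of 3 libraries. In the inverse model all co-culture points of Ptgs1 and Ptgis lie above all control points at both times, and those of Hpgd lie below.

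Co-cultured PSC were compared with their own controls by limma's moderated test on log2(FPKM + 0.5), with genes called at a Benjamini-Hochberg adjusted p below 0.05 over all genes tested. A gene was tested if its FPKM exceeded 1 in at least 3 of the 6 libraries compared. Ptgs1, Ptgs2, Ptges, Ptges2, Ptgis, Ptger4 and Hpgd passed this filter in each co-culture comparison, while Ptgfr, Ptger2 and Ptgds did not. Inverse co-culture at 72 h called 3 of the 7 tested genes, Ptgs1 and Ptgis up-regulated and Hpgd down-regulated, where 12.8% of all 13066 genes tested were called. Inverse co-culture at 24 h called only Ptgis, where 2.47% of 12827 genes were called. Standard co-culture called 0 of the 7 at 24 h and 0 at 72 h, where 0% of all genes were called at both times. The study itself reported differentially expressed genes in standard co-culture at both times, with DESeq2 on counts. The 0% therefore belongs to this fit and does not show that standard co-culture had no effect. Without a block none of the 7 had an unadjusted p below 0.05 in the standard model. Of all genes, 371 of 12859 had one at 24 h and 800 of 12863 at 72 h. limma voom on recovered fragments also called 0. Same-numbered standard libraries deviated together, and a fit that blocked on the replicate number called 1.22% of genes at 24 h and 0.00777% at 72 h, again with 0 of the 7. In that fit 3 of the 7 had an unadjusted p below 0.05 at 24 h, where 1932 of all 12859 genes tested did. They were Ptgs1 (log2 fold change 0.68, interval 0.35 to 1.01), Ptgis (0.34, 0.12 to 0.55) and Ptgs2 (0.38, 0.10 to 0.66). At 72 h 1 of the 7 did, Ptgs1 (0.57, 0.18 to 0.95), as did 1388 of all 12863 genes tested.

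The groups can also be compared by overlap alone. In inverse co-culture, all 3 co-culture libraries exceeded all 3 controls for Ptgs1 and Ptgis at 24 h (7.38% of all genes tested did so) and for the same pair at 72 h (9.53%). All 3 were below all controls for Hpgd at 24 h (13.8% of genes) and for Hpgd, Ptges2 and Ptger4 at 72 h (28.8%), a count near the background. In standard co-culture 0 of the 7 genes separated upward (3.35% of genes at 24 h, 3.36% at 72 h) or downward (4.38% and 9.78%).

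**Figure D2:**
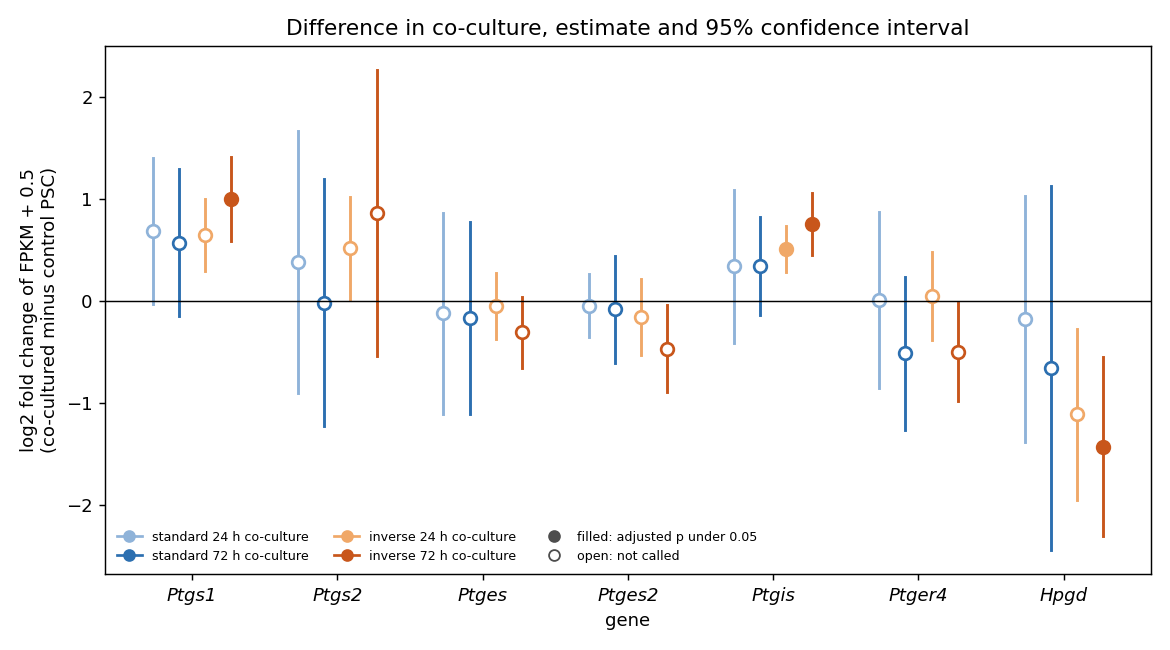
Log2 fold change of co-cultured over control PSC for the 7 genes tested, with 95% confidence intervals from limma (3 against 3 libraries), in 4 comparisons, all fitted without a replicate block; filled points are called. Intervals of Ptgs1 and Ptgis lie above 0 in both inverse comparisons, and all standard intervals of this fit include 0.

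Ptgs1 encodes the cyclooxygenase that most tissues express without stimulation, and Ptgs2 the form that cytokines and growth factors induce. To show how their starts differ, the RefSeq promoter windows (build GRCm38.p6, 250 bases before to 50 after the annotated start, 5′ to 3′ on the gene's own strand, all on the plus strand) are printed for both and for Hpgd, the other called gene with a window. Capitals mark matches on either strand to the TATA box TATAAA, the CCAAT box, the core TGACG of the cyclic AMP response element, the E box CACGTG or the GC box GGGCGG. A match to TGACG can overlap one to CACGTG. The windows are chr2:36230176-36230475 for Ptgs1, chr1:150099781-150100080 for Ptgs2 and chr8:56294302-56294601 for Hpgd.
Ptgs1: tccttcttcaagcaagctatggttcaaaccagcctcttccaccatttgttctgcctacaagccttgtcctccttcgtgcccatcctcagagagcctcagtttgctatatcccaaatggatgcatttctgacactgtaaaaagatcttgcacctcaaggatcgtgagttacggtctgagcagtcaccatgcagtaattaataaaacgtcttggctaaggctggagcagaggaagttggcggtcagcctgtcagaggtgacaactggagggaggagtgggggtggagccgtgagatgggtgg
Ptgs2: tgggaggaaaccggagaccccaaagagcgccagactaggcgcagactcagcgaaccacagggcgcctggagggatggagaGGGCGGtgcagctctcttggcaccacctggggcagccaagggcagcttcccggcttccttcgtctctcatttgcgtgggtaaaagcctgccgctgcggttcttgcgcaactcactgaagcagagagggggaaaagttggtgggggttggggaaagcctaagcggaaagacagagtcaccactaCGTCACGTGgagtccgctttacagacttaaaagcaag
Hpgd: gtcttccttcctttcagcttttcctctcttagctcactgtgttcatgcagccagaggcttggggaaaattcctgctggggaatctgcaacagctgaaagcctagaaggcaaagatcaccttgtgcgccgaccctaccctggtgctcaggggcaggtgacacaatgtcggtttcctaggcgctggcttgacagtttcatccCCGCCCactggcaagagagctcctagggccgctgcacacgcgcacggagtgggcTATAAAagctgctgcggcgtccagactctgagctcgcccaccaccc
The Ptgs1 window held 0 of the 5 motifs, and its GC content was 50.7% against a median of 52.7% over 32851 promoter windows. The Ptgs2 window (59.3% GC) held TGACG and CACGTG, overlapping each other just after the annotated start, and GGGCGG farther upstream. Where transcription begins in PSC was not tested, so positions refer to the annotated start only. The Hpgd window (58.0% GC) held TATAAA just after the RefSeq start and GGGCGG before it. The GENCODE start of Hpgd (56294585) lies downstream of the RefSeq start, and TATAAA lies between the 2 starts. Among all 32851 windows, 13.6% held TATAAA, 37.4% CCAAT, 20.8% TGACG, 7.15% CACGTG and 35.7% GGGCGG, and the matches are given only as a description of the sequence.

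Ptgs1 (chromosome 2, 36230426 to 36252272, plus strand, GRCm38) rose in inverse co-culture at 72 h. Its 3 co-culture libraries read 72.0, 79.3 and 110 FPKM, and its 3 controls 41.2, 50.1 and 37.8 FPKM, so the groups did not overlap. The means were 87.0 and 43.0 FPKM, a ratio of 2.02, and the log2 fold change was 0.99 (SE 0.18, limma adjusted p = 0.0144). The call held in 12 of 12 other settings but was lost without control library 1 (limma adjusted p = 0.0585) and without control library 3 (0.0670). At 24 h in inverse co-culture Ptgs1 read 61.6, 66.3 and 92.9 FPKM against 43.3, 49.5 and 45.7 FPKM in controls. The groups were again apart, and the log2 fold change of 0.64 (SE 0.16) did not pass over all genes (limma adjusted p = 0.0791), although it passed with voom (adjusted p = 0.0332). In standard co-culture Ptgs1 read 104, 46.9 and 70.6 FPKM at 24 h against 50.5, 38.4 and 42.4 FPKM, and 109, 52.6 and 57.3 FPKM at 72 h against 57.3, 40.6 and 43.1 FPKM. Each standard co-culture library exceeded the control of the same number, in 6 of 6 pairs, but the groups overlapped. The log2 fold changes were 0.68 (95% confidence interval -0.03 to 1.39) at 24 h and 0.57 (-0.16 to 1.29) at 72 h, with limma adjusted p of 1.0 and 0.799. With the replicate block these were 0.0852 and 0.358, and block and voom together called Ptgs1 at 24 h (adjusted p = 0.0234). Without the libraries numbered 1 they were 0.51 (SE 0.21) and 0.39 (SE 0.13), not called.

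Ptgs2 (chromosome 1, 150100031 to 150108227, plus strand) varied widely between libraries of 1 group and was not called in any co-culture. In inverse co-culture at 72 h it read 25.8, 14.3 and 9.37 FPKM against 14.5, 12.9 and 2.70 FPKM in controls. The groups overlapped, the lowest library of all 24 was a control here, and the log2 fold change of 0.86 had an interval of -0.54 to 2.26 (limma adjusted p = 0.365). At 24 h it read 11.4, 9.80 and 16.1 FPKM against 9.81, 9.32 and 6.40 FPKM, with a log2 fold change of 0.51 (interval 0.01 to 1.02, limma adjusted p = 0.322). In standard co-culture it read 11.4, 33.0 and 14.1 FPKM at 24 h against 7.71, 24.1 and 12.6 FPKM. At 72 h it read 10.8, 42.5 and 22.9 FPKM against 14.8, 25.7 and 29.1 FPKM. The standard library numbered 2 was the highest of its group in 3 of these 4 groups, and the log2 fold changes were 0.38 (-0.91 to 1.66) and -0.02 (-1.23 to 1.19). The sign at 72 h turned positive when libraries were scaled by the median of gene ratios (0.07) or quantile normalized (0.08). Without the libraries numbered 1 the values were 0.30 (SE 0.49) and 0.19 (SE 0.29), not called. Per length, Ptgs1 exceeded Ptgs2 in 24 of 24 libraries, by a ratio of 1.24 to 14.01 with a median of 4.71. The lengths, means over annotated transcripts, were 1508 bases for Ptgs1 and 2405 for Ptgs2, and the ratio depends on them. In fragments, not divided by length, Ptgs2 was the higher in some standard libraries.

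Of the terminal synthases, Ptgis (chromosome 2, 167191805 to 167240604, minus strand), the prostacyclin synthase, rose in inverse co-culture at both times. At 72 h its co-culture libraries read 114, 107 and 147 FPKM and its controls 74.8, 68.5 and 72.6 FPKM. At 24 h they read 102, 105 and 117 FPKM against 79.4, 71.8 and 76.1 FPKM. No control reached a co-culture library at either time. The ratios of the means were 1.70 and 1.43, and the log2 fold changes 0.75 (SE 0.13, limma adjusted p = 0.0140) at 72 h and 0.51 (SE 0.10, limma adjusted p = 0.0350) at 24 h. The 72 h call held in 12 of 12 other settings and was lost without control library 3 (limma adjusted p = 0.0630). The 24 h call was lost in 5 of 12 other settings and when control library 1, 2 or 3 or co-culture library 2 was left out (limma adjusted p = 0.0996 to 0.148). In standard co-culture Ptgis read 154, 85.8 and 77.7 FPKM at 24 h against 105, 74.2 and 65.2 FPKM. At 72 h it read 124, 88.6 and 78.4 FPKM against 68.4, 86.7 and 71.3 FPKM. The co-culture library was the higher in 6 of 6 same-numbered pairs, by least in library 2 at 72 h. Neither log2 fold change passed, at 0.34 (-0.41 to 1.09) and 0.34 (-0.14 to 0.82), and without the libraries numbered 1 they were 0.23 and 0.08.

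Ptges (chromosome 2, 30889471 to 30929863, minus strand), the inducible prostaglandin E2 synthase that is often induced together with Ptgs2, was not called in any co-culture. In inverse co-culture at 72 h it read 68.9, 73.3 and 51.8 FPKM against 88.2, 71.6 and 79.6 FPKM, a log2 fold change of -0.31 (-0.66 to 0.04, limma adjusted p = 0.199). In the other 3 comparisons its log2 fold change lay between -0.17 and -0.05, and the inverse value at 24 h turned to 0.01 with median-ratio scaling. The standard libraries numbered 1 held 39.9 to 51.6 FPKM and the other standard libraries 68.4 to 106 FPKM, in co-culture and control alike. Without those numbered 1, its standard log2 fold changes of -0.13 at 24 h and -0.17 at 72 h became -0.29 (SE 0.12) and -0.44 (SE 0.14), neither called (limma adjusted p = 0.608 and 0.290). The ratio of Ptgis to Ptges was below 1 in 3 of 3 inverse controls at 72 h (0.848 to 0.957) and above 1 in 3 of 3 inverse co-cultures (1.45 to 2.83). At 24 h it was 1.38 to 2.20 in inverse co-culture and 1.01 to 1.18 in controls. This ratio was not tested.

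**Figure D3:**
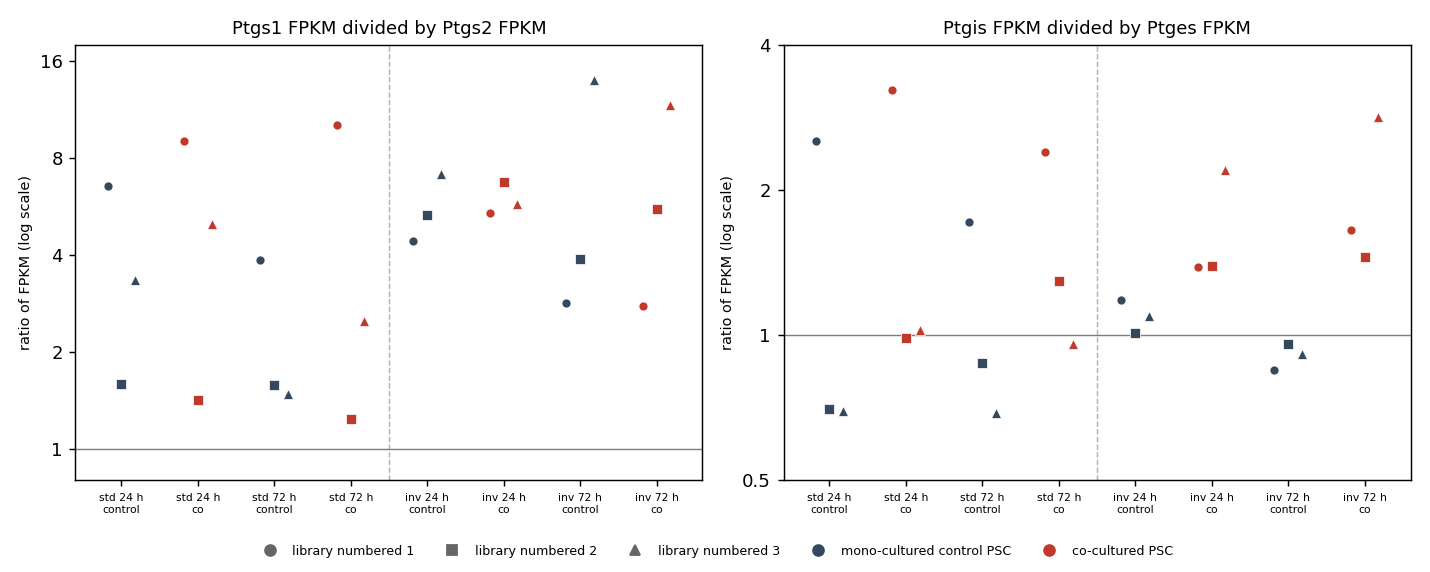
Ratio of Ptgs1 to Ptgs2 FPKM (left) and of Ptgis to Ptges FPKM (right) in each library, on log2-spaced axes; symbols mark library numbers and the grey line a ratio of 1. Ptgs1 exceeds Ptgs2 in all 24 libraries, and the Ptgis to Ptges ratio exceeds 1 in 15 of 24.

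Ptges2 (chromosome 2, 32395896 to 32405772, plus strand), a membrane-associated prostaglandin E synthase, was not called in any co-culture. In inverse co-culture at 72 h it read 10.8, 10.5 and 10.3 FPKM against 18.03, 11.1 and 16.2 FPKM. The groups were apart by a narrow margin, and the log2 fold change of -0.47 (-0.90 to -0.05) did not pass (limma adjusted p = 0.123), but did without control library 2 (-0.67, limma adjusted p = 0.0358). In the other 3 comparisons it lay between -0.16 and -0.05, and in standard co-culture at 72 h it turned to 0.01 with median-ratio scaling and 0.02 with quantile normalization. Without the libraries numbered 1 its standard values were -0.08 (SE 0.13) at 24 h and -0.29 (SE 0.21) at 72 h, not called. Ptgds (chromosome 2, 25466709 to 25470046, minus strand), the lipocalin-type prostaglandin D2 synthase, had 0 fragments in 21 of 24 libraries and at most 4 in the others. A count of 0 allows up to 3 fragments, or 0.135 to 0.210 FPKM depending on the library, and covers counting error only.

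Of the 3 receptors among the 10 genes, Ptger4 (chromosome 15, 5206661 to 5244187, minus strand) had the highest level in every library. In inverse co-culture at 72 h it read 9.19, 8.79 and 5.45 FPKM against 12.2, 10.2 and 10.7 FPKM. All co-culture libraries were below all controls, and the log2 fold change of -0.50 (-0.99 to -0.02) did not pass (limma adjusted p = 0.140). At 72 h in standard co-culture it read 10.9, 4.66 and 5.88 FPKM against 8.31, 10.0 and 11.4 FPKM, a log2 fold change of -0.52 (-1.27 to 0.23), and -0.96 (SE 0.19, not called) without the libraries numbered 1. At 24 h the log2 fold changes were 0.01 and 0.05 in standard and inverse co-culture, and the first was -0.04 with voom and -0.10 (SE 0.18) without the libraries numbered 1. Ptger4 overlaps Ttc33 on the other strand (10.2 to 17.02 FPKM). Fragments were counted without strand, so those lying in exons of both genes cannot be assigned to 1 of them. Counting at default settings leaves such fragments out. Ptger2 (chromosome 14, 44988195 to 45003820, plus strand) had 0 to 21 fragments per library, 0 in 8 of 24, with its highest level (0.350 FPKM) in standard co-culture library 1 at 72 h. Ptgfr (chromosome 3, 151796502 to 151837630, minus strand) had 9 to 108 fragments and exceeded 1 FPKM in 6 of 24 libraries. It read 0.704, 1.02 and 0.596 FPKM in inverse co-culture at 24 h against 0.580, 0.387 and 0.252 FPKM, so the lowest co-culture library lay just above the highest control. At 72 h its inverse groups overlapped fully, at 0.586, 1.695 and 0.628 FPKM against 1.51, 0.870 and 0.432 FPKM.

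Hpgd (chromosome 8, 56294585 to 56321043, plus strand), which inactivates prostaglandins, fell in inverse co-culture at 72 h. Its co-culture libraries read 1.099, 0.307 and 0.668 FPKM, from 37, 9 and 21 fragments, and its controls 3.37, 1.59 and 3.16 FPKM, from 131, 47 and 127 fragments. The groups did not overlap, the ratio of the means was 0.256, and the log2 fold change was -1.43 (SE 0.38, limma adjusted p = 0.0459). This call stood close to the threshold: it was lost in 6 of 11 other settings and on leaving out any 1 of the 6 libraries (limma adjusted p = 0.0506 to 0.166), while its sign was negative throughout. At 24 h it read 2.13, 0.726 and 0.479 FPKM against 2.83, 2.73 and 2.49 FPKM. The log2 fold change of -1.12 (SE 0.37) did not pass (limma adjusted p = 0.189), but did without co-culture library 1 (-1.54, limma adjusted p = 0.0316). In standard co-culture Hpgd read 1.105, 2.37 and 1.66 FPKM at 24 h against 0.705, 3.08 and 2.84 FPKM. At 72 h it read 0.533, 2.17 and 1.72 FPKM against 0.452, 5.05 and 4.09 FPKM. The libraries numbered 1 were the lowest of each standard group, and the log2 fold changes of -0.18 (-1.38 to 1.02) and -0.66 (-2.45 to 1.12) became -0.48 (SE 0.25) and -1.05 (SE 0.24) without them, not called.

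Markers of other cell types moved with these groups. In inverse co-culture at 72 h, 7 of 9 macrophage markers tested and 7 of 7 adipocyte markers tested fell, where 12.8% of all genes were called. Their median log2 fold changes were -1.54 and -3.00 against -0.16 over all genes. Among them were the macrophage genes Cd14 (-1.88), Fcer1g (-1.80), Adgre1 (-1.75) and C1qa (-1.66) and the adipocyte genes Plin1 (-4.32), Adipoq (-3.77), Cidec (-3.68) and Fabp4 (-3.00). Summed macrophage markers were 58.4 to 89.0 FPKM in co-culture and 139 to 275 FPKM in controls, and summed adipocyte markers 42.5 to 141 FPKM and 499 to 1021 FPKM. At 24 h the macrophage sums were 27.3 to 93.6 FPKM and 79.3 to 92.1 FPKM, and the adipocyte sums 121 to 269 FPKM and 225 to 324 FPKM. There 0 of 8 macrophage and 0 of 7 adipocyte markers tested were called, where 2.47% of all genes were. Their median log2 fold changes were -0.44 and -0.43 against -0.06 over all genes. The standard libraries numbered 1, which were lowest in Hpgd, held 41.9 to 91.5 FPKM of macrophage and 55.3 to 128 FPKM of adipocyte markers, and those numbered 2 held 444 to 1476 FPKM of macrophage markers. In inverse controls these cell types also moved over time, with 7 of 9 macrophage and 6 of 7 adipocyte markers tested higher at 72 h. The median log2 differences were 1.16 and 1.49 against 0.04 over all genes, of which 19.2% were called. The 10 epithelial markers summed to 1.504 to 8.17 FPKM in inverse co-culture at 72 h against 0 to 0.568 FPKM, and to 1.92 to 43.5 FPKM at 24 h against 0.370 to 0.861 FPKM, with Epcam at most 0.123 FPKM in any library. Krt19, a keratin of ductal and cancer cells, rose at 72 h (2.03). Of the 10 stellate and fibroblast markers tested, Pdgfra rose (0.38) and Lum fell (-1.59) at 72 h, and at 24 h Col3a1 (0.59) and Pdgfra (0.53) rose and Acta2 (-1.01) fell. The part of these cell types in the results for Ptgs1, Ptgis and Hpgd was not tested. In bulk RNA, fewer cells of a type and less RNA per cell cannot be told apart.

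**Figure D4:**
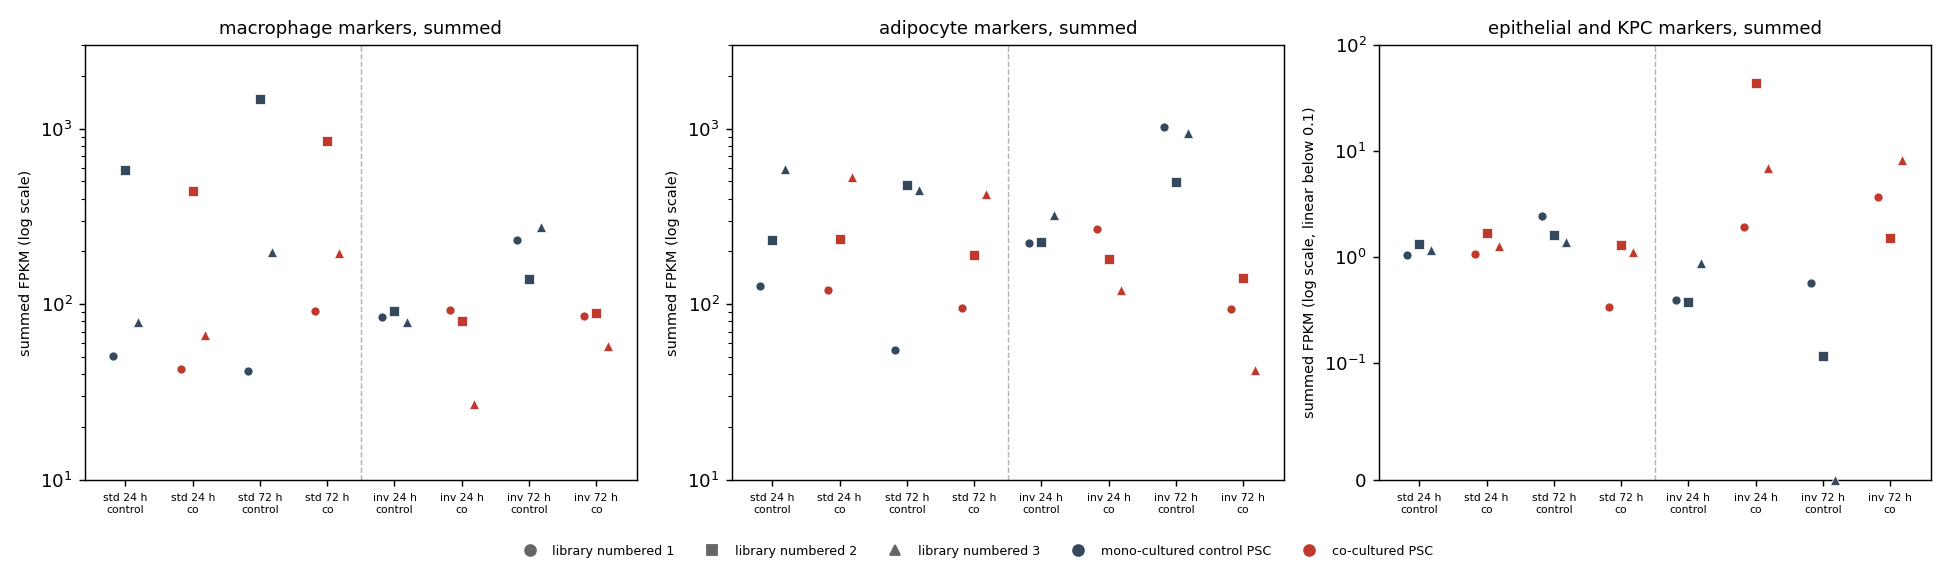
Summed FPKM of 12 macrophage, 8 adipocyte and 10 epithelial markers in each library, on log axes (the third is linear below 0.1); symbols mark library numbers. In the inverse model at 72 h the co-culture points lie below the controls for macrophage and adipocyte markers and above them for epithelial markers.

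Whether the response differed between the models was tested directly over all 24 libraries. Of the 8 genes tested, 0 were called at 24 h and 0 at 72 h by limma, where 0% of 14452 genes were called at each time, and 0 had an unadjusted p below 0.05. limma voom called 0 as well. A fit with the replicate block also called 0 of the 8 at both times. Over all genes that fit called 0% at 24 h and 0.111% at 72 h. The difference (inverse minus standard) in the log2 fold change of Ptgs1 was -0.04 (-0.84 to 0.77) at 24 h and 0.42 (-0.38 to 1.23) at 72 h. For Ptgis it was 0.17 (-0.47 to 0.82) and 0.41 (-0.24 to 1.05), and for Hpgd -0.94 (-2.64 to 0.76) and -0.77 (-2.47 to 0.93). Without the standard libraries numbered 1 the differences at 24 h and 72 h were 0.14 and 0.60 for Ptgs1, 0.28 and 0.67 for Ptgis, and -0.64 and -0.38 for Hpgd, with SE between 0.23 and 0.86 and none called. With the replicate block the intervals at 24 h and 72 h were narrower, at -0.55 to 0.47 and -0.09 to 0.94 for Ptgs1. For Ptgis they were -0.31 to 0.65 and -0.07 to 0.89, and for Hpgd -1.91 to 0.04 and -1.74 to 0.20. Without the block the intervals span differences larger than the changes themselves. No difference was called in either fit. The calls in inverse co-culture and their absence in standard co-culture therefore do not show that the models differ.

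Mono-cultured PSC were also compared over time, because the control level is the base of each co-culture comparison. In standard controls 0 of the 7 genes tested were called (0% of all genes), 0 had an unadjusted p below 0.05 and voom called 0. With the replicate block Ptgs2 had an unadjusted p below 0.05 there (log2 difference 0.72, SE 0.21, limma adjusted p = 0.434), as did 1155 of all 12963 genes tested. Without the libraries numbered 1 the standard controls still had 0 called, with log2 differences of 0.63 (SE 0.30) for Ptgs2, 0.59 (SE 0.18) for Ptger4, 0.55 (SE 0.22) for Hpgd and 0.18 (SE 0.15) for Ptgis. In inverse controls 0 of 7 were called, where 19.2% of 13092 genes were, and voom called Ptger4. Ptger4 read 12.2, 10.2 and 10.7 FPKM at 72 h against 7.24, 9.74 and 6.60 FPKM at 24 h, a log2 difference of 0.48 (SE 0.16, limma adjusted p = 0.0726). For the 3 genes called in co-culture the controls differed over time by -0.11 for Ptgs1, -0.07 for Ptgis and -0.04 for Hpgd on the log2 scale (SE 0.12, 0.09 and 0.27). The inverse control comparison shares its control libraries with both inverse co-culture comparisons.

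The wider pathway was described by 7 lists of 80 further genes. In standard co-culture 0 of 47 tested genes were called at 24 h and 0 of 48 at 72 h. In inverse co-culture 4 of 47 rose and 0 fell at 24 h, where 2.47% of all genes were called (139 up and 178 down). At 72 h 5 of 49 rose and 7 fell, where 12.8% were called (427 up and 1251 down). Of 7 tested genes that free arachidonate, 3 fell at 72 h, namely Mgll (log2 fold change -3.25), the monoglyceride lipase, Pla2g16 (-1.38), an adipose phospholipase, and Abhd12 (-0.39). Mgll and Pla2g16 are abundant in adipocytes, whose markers fell in the same libraries, and the part of those cells was not tested. The cytosolic phospholipase Pla2g4a was expressed at 17.4 to 31.3 FPKM and was not called. Of 5 other prostanoid synthases tested Cbr3 fell (-0.60), and of 4 other receptors Tbxa2r, the thromboxane receptor, fell (-0.63). Per length, Tbxa2r (18.3 to 46.3 FPKM) had a higher median level than Ptger4, as did the prostacyclin receptor Ptgir (8.88 to 28.6 FPKM), which was not called. Of 6 transport and breakdown genes, Slco2a1, the carrier that takes up prostaglandins, rose (1.28), from 3.89, 4.28 and 6.03 FPKM in controls to 11.2, 12.4 and 12.5 FPKM. Slco2a1 in inverse controls had been 10.55, 11.7 and 12.2 FPKM at 24 h and fell over time (-1.21), so the 72 h co-culture range overlapped the 24 h control range.

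Among 16 lipoxygenase and leukotriene genes, 5 were tested at 72 h and Mgst3 fell (-0.70). Of the cyclic AMP response genes, Pde4b and Pde4d, phosphodiesterases that cyclic AMP induces, rose at 24 h (0.93 and 0.72) among 10 tested. At 72 h Pde4b rose (1.06) and Ppargc1a fell (-1.53) among 11. Of the inflammatory genes that are induced together with Ptgs2 in many cells, Ccl2 (1.59) and Il6 (1.19) rose at 24 h among 10 tested, and Il6 (1.70), Lif (1.31) and Ptx3 (0.80) at 72 h among 11. Their list medians were 0.45 at 24 h and 0.46 at 72 h, where all genes had medians of -0.06 and -0.16. Il6 read 82.6 to 136 FPKM in inverse co-culture at 72 h against 14.4 to 58.4 FPKM, while Ptgs2 in the same libraries overlapped between the groups. In inverse controls over time 9 of 48 tested pathway genes rose and 4 fell, where 19.2% of all genes were called (1331 up and 1185 down). Those that rose were Mgll (1.55), Rgs2 (1.55), Ltc4s (1.46), Mgst2 (1.32), Cxcl2 (1.09), Zfp36 (0.67), Pla2g6 (0.54), Pla2g15 (0.42) and Il1r1 (0.41). Those that fell were Slco2a1, Ptx3 (-0.73), Ptgr1 (-0.50) and Ptges3 (-0.31). In standard controls 0 of 48 were called, and limma called 0 of 55 pathway genes for the difference between the models at either time.

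The genes whose levels followed the called genes most closely over the 24 libraries were found by Pearson correlation of log2(FPKM + 0.5) among 14452 genes. For Ptgs1 they were Steap2 (0.907), Tmem59l (0.890) and Lrrc32 (0.886). Those for Ptgis were Apbb1ip (0.917), Hs6st1 (0.90) and Igfbp6 (0.898), and those for Hpgd Tent5c (0.879), Dock10 (0.874) and Dazap2 (0.874). After subtracting group means these correlations lay between 0.783 and 0.884, and this part of the likeness lies between libraries of the same group. The libraries share 8 groups and differ in depth, so these values are descriptions.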

How the data were processed

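RNA-seq values of 24 PSC libraries were used. The authors had reads cleaned, aligned them with HISAT2 2.0.5 to the mouse genome GRCm38, counted fragments with featureCounts 1.5.0-p3 at default settings, which disregard strand, and deposited FPKM values of 53801 genes, relative to each library's own total with no further scaling. The authors called DEG with DESeq2 1.20.0 on counts not used here. FPKM values do not keep depth, but with GENCODE M21 transcript lengths 95.45 to 96.37% of low values (below 20 fragments, tolerance 0.01) were whole fragments, which gave the library totals and the fragments per gene. Of 28892 genes above 0, 27248 (94.3%) were whole in every library. Replicates differed by a chi-square of at least 13.1 per gene, so none was a copy of another.

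Comparisons used limma 3.58.1 in R 4.3.3 (moderated test with an intensity trend, two-sided, on log2(FPKM + 0.5)), which understates changes of low genes, with Benjamini-Hochberg adjustment over genes with FPKM above 1 in at least 3 libraries compared. Each co-culture was set against its own control over 6 libraries, and models were compared over all 24. The scripts were tested on simulated data with 200 genes changed and the spread averaged over groups. Of genes changed by a log2 fold change of 1, 33.5% were called for standard co-culture at 72 h. The share was 25.5% for inverse co-culture at 72 h and 41.0% for the models' difference at 72 h. A count of 0 called therefore does not show that no gene changed. Every group was simulated with the same spread, so these shares do not show which model is the more sensitive. In the data the median SE of the log2 fold change at 72 h was 0.215 for standard and 0.172 for inverse co-culture. Alternatives were other pseudocounts, filters, scalings, no trend, voom, a replicate block, other sets of libraries and leaving out each replicate. Block with median-ratio scaling, block with voom, and omission of the standard libraries numbered 1 were added after the data were seen. The labels do not say what a number marks. Same-numbered libraries deviated together in the standard model only (correlation of deviations from group means 0.478 to 0.823 in all its comparisons). For library 3 in standard controls over time the correlation was 0.479, and 0.471 with a library of another number. The 10 genes and the lists were chosen with earlier results of these data known. All 10 are reported. Of each other list the called genes are named, at most 4 per list and comparison by size of change, and a few more (Pla2g4a, Ptgir and markers) for their levels, after these were seen. The 3 genes most like each called gene are named, and promoters (RefSeq, 9 of 10 genes matched) are shown for Ptgs1, Ptgs2 and Hpgd. Ptgis was the gene without a match. Python with pandas and matplotlib made tables and plots. One item of the KPC genotype is not reported here.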

Additional observations from a re-analysis of the deposited data

How the results depend on the processing

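The count of the 10 genes called was the same, or within 1.5 times, under 142 of 161 alternatives, with no change in the models' difference or in standard controls over time. Most comparisons had a count of 0 and called 0% of all genes, so an unchanged count there says little. A change from 3 to 2 counted as within 1.5 times, which covers losses of Hpgd in inverse co-culture at 72 h. In inverse co-culture at 24 h the count of 1 became 0 without the filter, without the intensity trend, with all 24 libraries in 1 model, with the replicate block and with the block and median-ratio scaling, and 2 (Ptgs1 and Ptgis) with voom, alone or with the block. Leaving out 1 library gave 0 to 3 there, and, for the count of 3 at 72 h, again 0 to 3, with 0 without control library 3 and 1 without control library 1. In inverse controls over time the count of 0 became 1 (Ptger4) with voom, alone or with the block, and 0 to 1 on leaving out 1 library. In standard co-culture at 24 h it became 1 (Ptgs1) with the block and voom. The causes were not tested.

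With the replicate block, inverse co-culture at 72 h kept a count of 3 and at 24 h had 0. In the inverse model same-numbered libraries share only a number (correlations -0.171 to 0.148). The block changed no other count of the 10 genes, and over all genes it called 902 instead of 1678 at 72 h and 88 instead of 317 at 24 h in inverse co-culture. Over all genes, 25.4% of calls in inverse co-culture at 72 h were higher in co-culture, against 52.1% with median-ratio scaling and 50% with quantile normalization, which shifted the median of all genes from -0.16 to -0.01 and 0.01. At 24 h these shares were 43.9%, 55.2% and 51.1%. Under both scalings Ptgs1 and Ptgis stayed called at 72 h (log2 fold changes 1.12 to 1.15 and 0.86 to 0.91) and Hpgd did not (limma adjusted p = 0.0641 and 0.0957). No alternative changed the sign of a called gene. Of 1167 alternative values of single genes 103 changed sign, none of them called in either setting. Hpgd rests on 9 to 156 fragments per library, Ptgfr on 9 to 108, and Ptger2 and Ptgds are too shallow for a comparison.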
